A study of Mus musculus with 5 samples.

Results

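The genes described here are 10 genes of glial intermediate filaments and of the reactive state of astrocytes: Gfap, Vim, Synm, Des, Cd44, Lcn2, Serpina3n, Timp1, C3 and Osmr. They were taken by name from the deposited gene tables of 5 RNA-seq libraries, and all 10 were found among 46078 genes. The set was selected on the measured TPM of Gfap, which differed widely between libraries of 1 group, so the levels of Gfap are given as a description with no test.

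The libraries were made from neural precursor cells (labelled NPC) of the subventricular zone (SVZ), the stem cell niche along the ventricles of the adult brain. All cells came from C57BL/6 mice labelled female, 5 to 8 weeks old and without mutation (the methods name the C57BL/6j strain and an older age), and all received PBS as a sham exposure. The 1 h group holds replicates 1 and 2 and the 8 h group replicates 13, 14 and 15, named for the time between PBS and RNA isolation. Both groups were grown as neural spheres with EGF and FGFb and then plated, so they model cultured precursors and not astrocytes in tissue. In the study such undifferentiated cells served as negative controls. Per the methods a replicate is 1 animal. Cells exposed to hydrogen peroxide in the same project were not analysed here.

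Intermediate filaments are the tough, ropelike fibres of the cytoskeleton. Precursor cells build them mainly from vimentin and nestin, and maturing or injured astrocytes add glial fibrillary acidic protein (GFAP), the classical marker of astrogliosis. Cytokines of the interleukin 6 family act through the receptor chain gp130 and the transcription factor STAT3, which drives Gfap transcription and many genes of the reactive state. Reactive astrocytes are further known for secreted proteins such as lipocalin 2, the protease inhibitors Serpina3n and TIMP1, and complement C3.

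Levels are given in TPM, the share of a gene among all transcripts of a library, which accounts for gene length and so can be compared between genes. The labels also number the libraries, in 2 identifier series. Series 2 comprises the 8 h replicates 13 and 15, and series 1 the other 3 libraries. No source used here explains the series, and series 2 holds 8 h libraries only. The same division appeared in transcripts of the sex chromosomes. Xist, the RNA of the inactive X chromosome, was at 165.3 and 199.7 TPM in the 8 h replicates 13 and 15 and between 0.0285 and 0.0611 TPM in the others. The sum of 4 Y-linked genes was between 137.6 and 180.9 TPM in both 1 h libraries and the 8 h replicate 14, against 0.0253 and 0 TPM in the 8 h replicates 13 and 15. Transcripts of 3 libraries thus went against the female label. Of the marker lists, that of stem and precursor cells had the highest sum, between 9202 and 11981 TPM. Most of it was Fabp7, a lipid carrier of radial glia, at 7679 to 10076 TPM. The mature astrocyte list summed to between 1154 and 1988 TPM and the oligodendrocyte lineage list to between 1201 and 1787 TPM. Between 13681 and 13967 genes reached 1 TPM in a library, so the libraries saw a like number of genes.

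Promoters are shown for the 3 members whose levels ordered the 5 libraries alike, Gfap, Osmr and Vim. Each runs from 250 bases before the RefSeq transcription start to 20 after it, 5′ to 3′ on the gene's strand, in GRCm38.p6. Capitals mark a STAT motif (TTCNNNGAA) in Gfap, an AP-1 motif (TGANTCA) in Osmr and a TATA box (TATAAA) in Vim. The Gfap window lies at chr11:102897181-102897450 on the minus strand, the Osmr window at chr15:6874294-6874563 on the minus strand and the Vim window at chr2:13574061-13574330 on the plus strand. All 3 windows lie within the longer gene bounds of the deposited tables.
Gfap: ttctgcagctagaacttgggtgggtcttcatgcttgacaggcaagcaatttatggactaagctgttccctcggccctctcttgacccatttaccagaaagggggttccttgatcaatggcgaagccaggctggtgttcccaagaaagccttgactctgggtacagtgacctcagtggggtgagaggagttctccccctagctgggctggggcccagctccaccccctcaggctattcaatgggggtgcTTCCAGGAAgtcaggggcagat
Osmr: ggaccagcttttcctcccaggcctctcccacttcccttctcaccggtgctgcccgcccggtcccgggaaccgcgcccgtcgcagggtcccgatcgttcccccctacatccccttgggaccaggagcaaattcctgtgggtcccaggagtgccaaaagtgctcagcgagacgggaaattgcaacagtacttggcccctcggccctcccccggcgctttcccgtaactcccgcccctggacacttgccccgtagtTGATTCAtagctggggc
Vim: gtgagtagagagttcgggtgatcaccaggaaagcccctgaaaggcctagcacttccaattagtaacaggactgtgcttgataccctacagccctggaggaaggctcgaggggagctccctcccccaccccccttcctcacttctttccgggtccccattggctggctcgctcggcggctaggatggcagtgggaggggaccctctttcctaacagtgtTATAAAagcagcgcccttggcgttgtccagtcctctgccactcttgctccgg

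These 3 patterns and the palindrome of nuclear factor I (NFI: TGGC, 5 bases of any kind, GCCA) were searched on both strands from 250 bases before to 50 after the start in 32851 RefSeq promoters, and none overlapped another in a member. The STAT motif stood in 8.30% of all promoters and in 1 of 10 members, Gfap, where it began 2 bases before the start. The AP-1 motif stood in 7.81% of all and in 1 member, Osmr, beginning 4 bases after the start. TATAAA stood in 13.6% of all and in Vim, 32 bases before the start, and C3. The NFI pattern stood in 0.807% of all and in 0 of 10 members. No pattern searched was shared by Gfap, Osmr and Vim in these windows.

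Gfap (ENSMUSG00000020932, chr11:102887336-102900912, minus strand, GRCm38) encodes the filament protein of astrocytes and of adult SVZ stem cells. Its level was 4.35 and 4.15 TPM in the 1 h replicates 1 and 2. At 8 h it was 26.0 TPM in replicate 13, 1.81 in replicate 14 and 47.2 in replicate 15. Replicate 14 was below both 1 h libraries and the other two were far above them, so the 8 h group spanned the 1 h group. In whole cultures, more cells of a type and more RNA per cell cannot be told apart. Replicate 13 stood 14.3-fold and replicate 15 26.0-fold above replicate 14. On the log2(TPM + 1) scale Gfap ranked 23rd of 13870 genes by the range over the libraries, with a range of 4.10 against a median of 0.48. Its mean was 4.25 ± 0.136 TPM (SD, n = 2) at 1 h and 25.0 ± 22.7 TPM (SD, n = 3) at 8 h. Mean per-base coverage of Gfap was between 3.29 and 64.1.

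**Figure D1:**
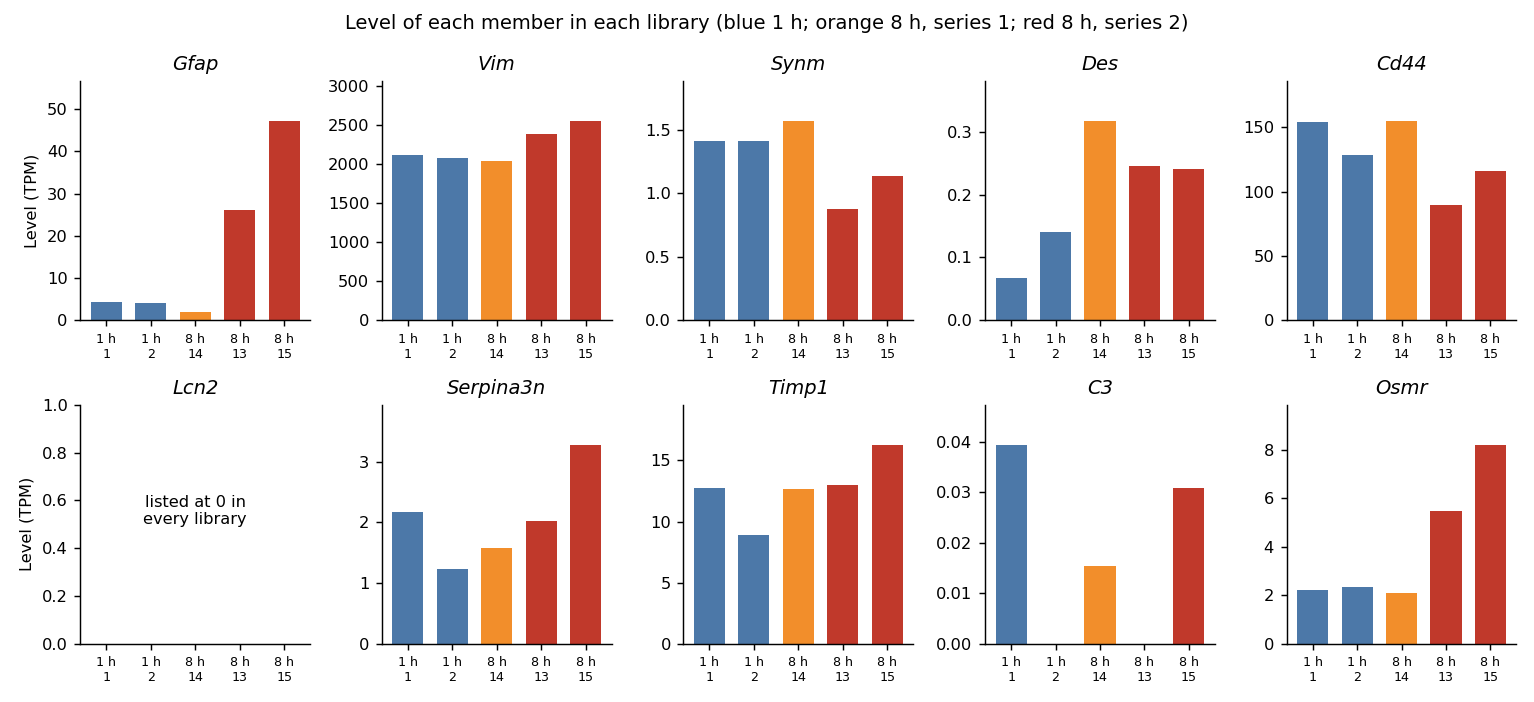
Level in TPM (linear axis from 0, a scale of its own per gene) of each of the 10 members in each library, with 1 bar per library: blue for 1 h, orange for the 8 h replicate 14 and red for the 8 h replicates 13 and 15. Gfap and Osmr were highest in the red libraries, Cd44 and Synm lowest there, and Lcn2 was listed at 0 throughout.

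Vim (ENSMUSG00000026728, chr2:13573927-13582826, plus strand) encodes vimentin, the main filament protein of precursor cells. Its level was 2112 and 2073 TPM at 1 h, against 2389, 2032 and 2552 TPM in the 8 h replicates 13, 14 and 15. It was the most abundant member in every library. Vim ordered the libraries as Gfap did, but the highest was only 1.26-fold above the lowest. Vimentin transcripts exceeded those of Gfap 486-fold and 499-fold at 1 h, and 91.9-fold, 1121-fold and 54.0-fold in the 8 h replicates 13, 14 and 15. Of the TPM of Gfap, Vim, Synm and Des together, Gfap therefore made up between 0.0891% and 1.82%.

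Synm (ENSMUSG00000030554, chr7:67730161-67759742, minus strand) encodes synemin, a large filament protein that joins vimentin and desmin networks. It was low: 1.41 TPM in both 1 h libraries and 0.876, 1.57 and 1.13 TPM in the 8 h replicates 13, 14 and 15. Here replicate 14, which had the least Gfap, was the highest library, and replicates 13 and 15 were the lowest. Des (ENSMUSG00000026208, chr1:75360329-75368579, plus strand) encodes desmin, the filament protein of muscle and pericytes. Its level was 0.0672 and 0.141 TPM at 1 h, against 0.246, 0.318 and 0.241 TPM in the 8 h replicates 13, 14 and 15, at a mean per-base coverage of 0.133 to 0.734. All 8 h libraries were above both 1 h libraries, at very low levels. The pericyte and smooth muscle list was carried by Acta2 and Tagln alone. It summed to 103.7, 94.9, 21.0, 153.7 and 33.9 TPM in the order 1 h replicates 1 and 2, then 8 h replicates 13, 14 and 15. Its other markers were each at 0.499 TPM or less in every library. Of these, Pdgfrb, Kcnj8, Abcc9 and Cnn1 went the other way, being higher in replicates 13 and 15, and Rgs5 and Myh11 overlapped. The sums thus do not show a change in pericytes. The part of this list in the results for Des and Synm was not tested.

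Cd44 (ENSMUSG00000005087, chr2:102811141-102901665, minus strand) encodes the hyaluronan receptor of astrocyte-restricted precursors and reactive astrocytes. Its level was 153.8 and 128.1 TPM at 1 h, against 89.5, 155.0 and 116.1 TPM in the 8 h replicates 13, 14 and 15. The 2 libraries highest in Gfap were lowest in Cd44, at 0.577-fold and 0.749-fold of replicate 14. Osmr (ENSMUSG00000022146, chr15:6813577-6874969, minus strand) encodes the oncostatin M receptor, which pairs with gp130. It was at 2.20 and 2.35 TPM at 1 h and at 5.48, 2.08 and 8.22 TPM in the 8 h replicates 13, 14 and 15. Osmr placed all 8 h libraries as Gfap did, with replicate 13 2.63-fold and replicate 15 3.94-fold above replicate 14.

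Among the secreted reactive proteins, Timp1 (ENSMUSG00000001131, chrX:20870166-20874735, plus strand), an inhibitor of matrix metalloproteinases, was at 12.7 and 8.89 TPM at 1 h and at 13.0, 12.7 and 16.3 TPM in the 8 h replicates 13, 14 and 15. Its lowest level was that of the 1 h replicate 2, whereas the 1 h replicate 1 lay beside the 8 h replicates 13 and 14. Timp1 lies within Syn1, a neuronal gene on the opposite strand with a mean of 20.7 TPM, and no source used here gives the strand setting of the deposited values, so the 2 genes may share reads. Serpina3n (ENSMUSG00000021091, chr12:104406729-104414329, plus strand), a serine protease inhibitor, was at 2.18 and 1.24 TPM at 1 h and at 2.02, 1.58 and 3.28 TPM at 8 h. It belongs to a cluster of near-identical genes, so its level is uncertain. C3 (ENSMUSG00000024164, chr17:57203970-57228136, minus strand), the central complement protein, was between 0 and 0.0395 TPM, at a coverage of at most 0.0948. Lcn2 (ENSMUSG00000026822, chr2:32384633-32388252, minus strand), which encodes the iron-siderophore carrier lipocalin 2, was listed at 0 in every library. Neutrophil markers, which often come with Lcn2, were also near 0, with S100a8, S100a9 and Ly6g listed at 0. The microglial list summed to between 4.26 and 7.22 TPM, with Aif1, Tmem119 and Tyrobp listed at 0.

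The comparison of 8 h with 1 h asks whether these genes shifted during sham exposure. It was fitted with limma on log2(TPM + 1) over the 13870 genes that averaged 1 TPM or more, which 7 of 10 members did (Des, Lcn2 and C3 did not). Calls needed an adjusted p (Benjamini-Hochberg) no higher than 0.05 and a log2 fold change beyond 1 in either direction. Of the 6 members beside Gfap 0 were called, where 6 of all genes were (0.0433%), and 0 of 6 had an unadjusted p under 0.05, where 9.52% of all genes did so in the direction of 8 h and 2.82% in that of 1 h. With TPM rescaled by median-ratio size factors those shares came from 798 higher and 761 lower genes, in place of 1321 and 391, and the median log2 fold change of all genes went from 0.10 to 0.00 (shift -0.11). These 6 overlapped between 1 h and 8 h, where 23.7% of all genes had every 8 h library above both 1 h libraries and 9.43% every one below. Des entered the fit when the minimum was lowered to a mean TPM of 0.1 (log2 fold change 0.20 ± 0.12, limma, adjusted p = 0.514) or dropped (0.20 ± 0.06, adjusted p = 0.415), and C3 when it was dropped (-0.0060 ± 0.037, adjusted p = 0.951).

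The largest differences among the others were those of Osmr and Timp1. For Osmr the log2 fold change was 0.80 ± 0.45 (SE, 5 libraries, limma, adjusted p = 0.466), and for Timp1 0.35 ± 0.20 (adjusted p = 0.464). Serpina3n had 0.27 ± 0.29 (adjusted p = 0.648), Vim 0.15 ± 0.13 (adjusted p = 0.603), Synm -0.15 ± 0.21 (adjusted p = 0.741) and Cd44 -0.26 ± 0.23 (adjusted p = 0.602). For Gfap, on which the set was selected, the same fit gave 1.55, as a description only. The median of the 6 members beside Gfap was 0.21, against 0.10 over all genes tested. Leaving out 1 library at a time moved these values widely, from 0.020 to 0.53 for Serpina3n, 0.12 to 0.59 for Timp1, 0.075 to 0.24 for Vim, -0.27 to -0.041 for Synm, -0.46 to -0.065 for Cd44 and 0.45 to 1.24 for Osmr.

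Leaving out the 8 h replicate 14 changed 1 call among the members beside Gfap. Without it the log2 fold change of Osmr was 1.24 ± 0.21 (limma, adjusted p = 0.0150), and the value of Gfap was 2.78. Osmr then passed the call rule, as did 568 genes of all, but time, identifier series and the transcripts of Xist and the Y chromosome then divided the libraries alike and cannot be told apart. With the series as a term, which compares the times within series 1 alone, the log2 fold change was -0.90 for Gfap, -0.09 for Osmr, -0.04 for Vim, -0.05 for Serpina3n, 0.09 for Synm and 0.14 for Cd44. All 6 had the opposite sign to that over all libraries, and Timp1 kept its sign at 0.23. The 8 h side of this comparison is replicate 14 alone, and every member beside Gfap had a value smaller than its SE. No member was called in that fit.

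**Figure D2:**
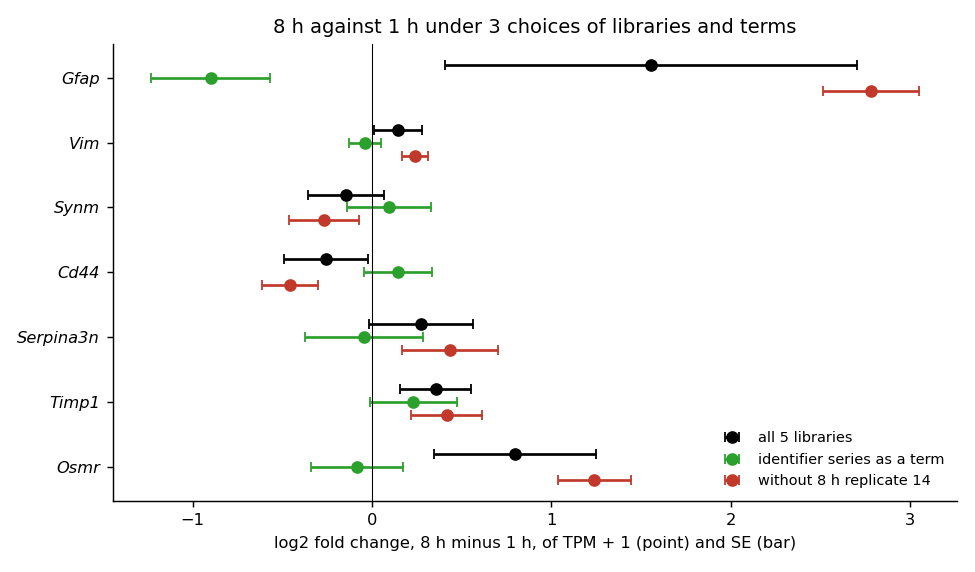
Log2 fold change of TPM + 1, 8 h minus 1 h (points), with its SE (bars) for the 7 members tested: black for all 5 libraries, green with the identifier series as a term, red without the 8 h replicate 14. The points of Gfap lie at 1.55, -0.90 and 2.78 and those of Osmr at 0.80, -0.09 and 1.24, so the sign depends on how replicate 14 and the series enter. The points and bars of Gfap, on which the set was selected, are a description and no test.

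The question which members follow Gfap was put to the libraries one by one. The 8 h replicates 13 and 15 were above the other 3 libraries in Vim, Timp1 and Osmr and below them in Synm and Cd44, while Serpina3n overlapped. Over all genes tested 39.8% were above and 13.5% below, so 3 higher of 6 is close to that share. The 2 lower of 6 are more than theirs, but these are few genes. With median-ratio scaling the shares were 24.4% and 24.9%, and Timp1 overlapped while the other members kept their place. As a mean difference of log2(TPM + 1), Gfap was 3.08 higher in these 2 libraries, Osmr 1.27, Serpina3n 0.45, Timp1 0.34 and Vim 0.25, and Synm and Cd44 stood at -0.30 and -0.51. The median difference of all genes was 0.14, and scaling shifted it by -0.15. After scaling the differences were 2.95 for Gfap, 1.15 for Osmr, 0.35 for Serpina3n, 0.20 for Timp1, 0.10 for Vim, -0.38 for Synm and -0.65 for Cd44, so all 7 kept their sign.

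Only Vim and Osmr among the 6 others had the whole order of Gfap, from replicate 15 over replicate 13 and both 1 h libraries down to replicate 14, also after scaling. That order held for 979 genes of all (7.06%). Likeness in size was measured as the root mean square difference between 2 centred log2(TPM + 1) profiles over the 5 libraries, where 0 is the same profile. Osmr was nearest to Gfap, at 0.943 (rank 133 of 13869), then Serpina3n at 1.34 (rank 1907), Timp1 at 1.42 and Vim at 1.44. Synm and Cd44 were at 1.71 and 1.80, beyond the median of 1.51 over all genes. A flat profile would lie at 1.57, so Serpina3n, Timp1 and Vim were little nearer to Gfap than a gene with no change, and Synm and Cd44 farther.

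**Figure D3:**
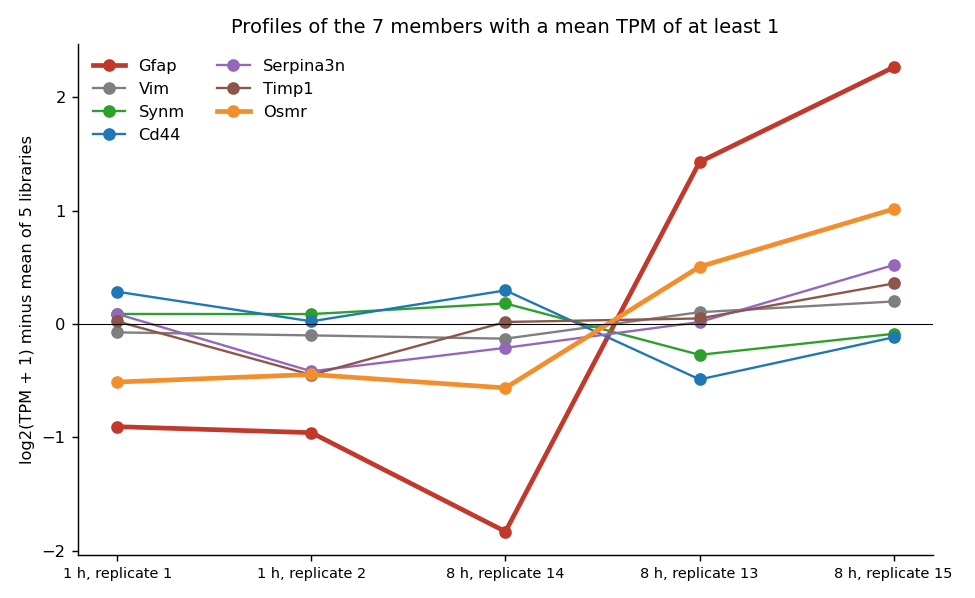
Profile of each of the 7 members tested: log2(TPM + 1) minus the mean of the 5 libraries (vertical axis) by library (horizontal axis), with 1 line per gene. Gfap runs from its lowest point in the 8 h replicate 14 to its highest in replicate 15, Osmr follows at a smaller range, and Cd44 and Synm bend the other way.

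The count table gave a second reading of 7 members, as whole reads per gene in columns named for the libraries. Gfap had 113 and 125 reads at 1 h and 61, 88 and 835 in the columns named 8 h replicates 13, 14 and 15. Osmr had 95 and 86 reads at 1 h and 88, 87 and 245 at 8 h. In counts a single 8 h column was high in both genes, where the TPM tables had 2. Reads of Vim ranged from 67409 to 102923 and those of Cd44 from 3723 to 5984.

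The 8 h columns did not hold the same libraries as the TPM tables of the same names. Reads were set against TPM gene by gene, with the factor of each gene taken from the 1 h libraries, over 7552 genes. The column named replicate 13 came within 0.1 (log2) of the table of replicate 14 for 77.5% of genes and of its own table for 24.0%, and the column named replicate 15 met the table of replicate 13 for 77.5% and its own for 40.2%. Gfap in the column named replicate 13 was 1.02 times what the table of replicate 14 predicts and 0.0780 times what its own does. No 8 h column matched the table of replicate 15, which has the highest Gfap and Osmr. The column named replicate 14 matched no table: it met its own for 24.2% of genes and at most 38.0%, for the 1 h replicate 2. Columns and tables were kept under their names, and which names are right is not known here. If those of the TPM tables are wrong, the 8 h replicate numbers and identifier series given with TPM values change with them.

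In edgeR's quasi-likelihood test on the counts 0 of 6 members beside Gfap and 0 of 7590 genes (0%) were called, and an unadjusted p under 0.05 was found for 0 members and 199 genes (2.62%). DESeq2 called 0 genes and had 227 with an unadjusted p under 0.05. The log2 fold change was 0.40 ± 0.48 for Osmr, 0.50 ± 0.53 for Serpina3n, 0.22 ± 0.27 for Timp1, -0.11 ± 0.13 for Vim, -0.08 ± 0.39 for Synm and -0.27 ± 0.21 for Cd44 (edgeR, adjusted p from 0.966 to 0.984). Gfap, as a description, stood at 1.19. Vim was the 1 member with another sign than in TPM.

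Genes whose profile lay nearest to that of Gfap were named next, leaving out gene models without a proper name. The 10 nearest were Sulf1, C4b, Snord50b, Gria1, Dkk3, A2m, Pdlim3, Pla2g7, Heph and Anxa3, at distances from 0.322 to 0.592. Sulf1, an enzyme that trims heparan sulphate, was at 6.07 and 7.24 TPM at 1 h and at 66.3, 4.73 and 73.8 TPM in the 8 h replicates 13, 14 and 15. A2m, a secreted protease trap, was at 24.9 and 25.8 TPM at 1 h and at 87.7, 17.7 and 123.2 TPM at 8 h. All 10 were higher in the 8 h replicates 13 and 15 than in the other 3 libraries, which nearness to Gfap entails, and 8 of 10 had its whole order. With a pseudocount of 0.1 in place of 1, 5 of the 10 were still among the nearest. C4b has a near-identical copy in C4a and Snord50b is a short RNA, so both values are uncertain.

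**Figure D4:**
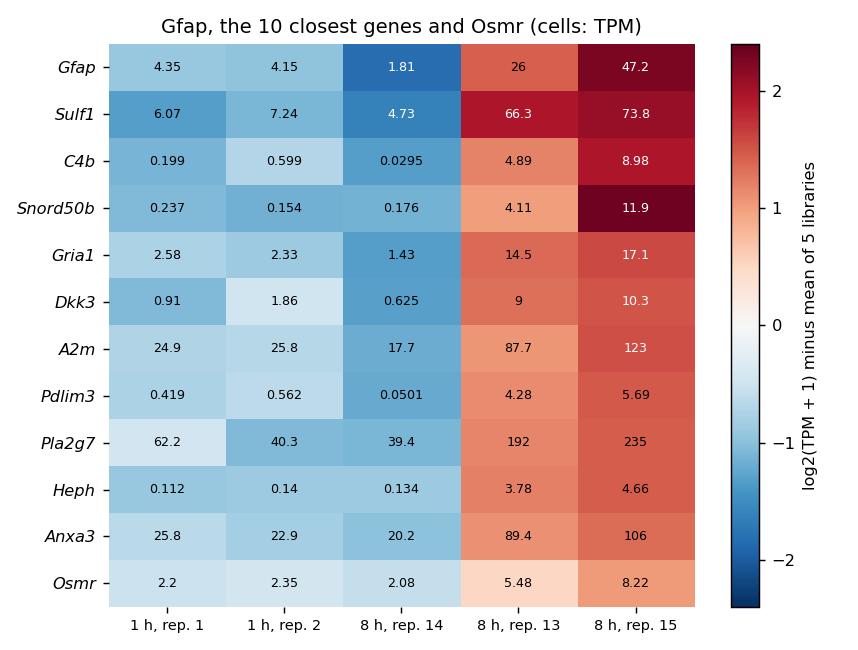
Gfap, the 10 genes with the nearest profile and Osmr (rows) in the 5 libraries (columns): colour gives log2(TPM + 1) minus the mean of the 5 libraries, and the printed number is the TPM. The 2 right-hand columns, the 8 h replicates 13 and 15, lie above the mean (red) for every gene and the other 3 below it (blue).

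Other genes of the filaments and of the reactive state were read from lists, with 0 genes called in each list. The genes named here and below include the 2 of each list nearest to Gfap. That choice favours genes higher in the 8 h replicates 13 and 15, so their levels there are a description only. The counts above and below in each list stand beside 39.8% and 13.5% of all genes tested, and 24.4% and 24.9% after scaling. Of 13 other intermediate filament and lamin genes 8 were tested: in the 8 h replicates 13 and 15, 2 were above and 5 below the other libraries (2 and 6 after scaling), with a median difference of -0.28 on the log2 scale. Nes, the nestin of precursor cells, was at 735.5 and 753.3 TPM at 1 h and at 690.1, 784.4 and 698.7 TPM at 8 h. It was thus lower in the 2 libraries with the most Gfap, the 8 h replicates 13 and 15, than in the others, over a narrow range. Lmna, a lamin of the nuclear envelope, was between 51.5 and 58.8 TPM in the other 3 libraries and at 31.4 and 24.2 TPM in these 2, whereas Lmnb2 (39.6 and 37.4 against 26.8 to 30.6 TPM) was higher there and Lmnb1 was at 242.6 and 273.6 TPM in these 2 and between 143.8 and 162.2 TPM in the others.

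Of 6 other pan-reactive genes 3 were tested. Cp, the copper oxidase ceruloplasmin, was at 12.5 and 13.2 TPM at 1 h and at 30.9, 10.4 and 32.8 TPM at 8 h, in the order of Gfap. Cxcl10, a chemokine, was between 0.106 and 0.466 TPM in the other 3 libraries and at 3.45 and 1.22 TPM in the 8 h replicates 13 and 15. S1pr3, a lipid receptor, went the other way, at 4.10 and 3.94 TPM against 4.62 to 5.14 TPM. Of 12 genes linked to the neurotoxic (A1) state 6 were tested, of which 2 were above and 2 below in these 2 libraries (1 and 2 after scaling). The higher were H2-D1, an antigen-presenting protein, at 15.7 and 16.1 against 7.71 to 10.2 TPM, and Fkbp5, a cochaperone, at 44.1 and 44.5 against 35.2 to 41.0 TPM, which overlapped after scaling. Gbp2 and Amigo2, both of that list, had an unadjusted p under 0.05 for a lower level at 8 h (log2 fold change -0.57 ± 0.23 and -0.78 ± 0.29, limma, adjusted p = 0.403 and 0.386). Of 12 genes linked to the A2 state 7 were tested, with 0 above and 3 below, also after scaling. S100a10, the most abundant of them, was at 417.5 and 370.4 TPM in the 8 h replicates 13 and 15 and between 797.5 and 976.6 TPM in the others. The other two were Clcf1, a cytokine, at 9.53 and 7.67 against 17.2 to 25.0 TPM, and Cd109, a membrane protein, at 34.4 and 40.2 against 43.3 to 56.2 TPM. B3gnt5 and Sphk1, enzymes of glycolipid and sphingolipid synthesis, overlapped, at 4.67 to 19.6 and 1.18 to 2.65 TPM over the 5 libraries.

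The pathway of Osmr was measured broadly: 12 of 14 genes of the oncostatin M, LIF and IL-6 receptors and STAT3 were tested, and the ligands Osm and Il6 were listed at 0 in every library. In the 8 h replicates 13 and 15, 6 of the 12 were above the others and 2 below (4 and 3 after scaling), with a median difference of 0.13, near the 0.14 of all genes. Stat3 was at 125.7 and 149.3 TPM at 1 h and at 159.4, 121.1 and 195.0 TPM at 8 h, and after scaling the groups overlapped. Il6st, which encodes gp130, was at 48.4 and 52.9 TPM in these 2 libraries and between 32.9 and 37.0 TPM in the others, and kept that place after scaling. Cntfr, the receptor chain for ciliary neurotrophic factor, was at 57.2 and 51.7 against 26.7 to 40.1 TPM, and the kinase Jak1 at 64.1 and 68.6 against 50.9 to 54.2 TPM. Il6ra, the receptor chain for interleukin 6, was lower, at 1.90 and 1.70 TPM against 5.72 to 9.98 TPM. Jak2, Socs3 and Pim1 of this list were named after their values were seen. The kinase Jak2 was also lower, at 39.8 and 42.3 against 43.7 to 46.3 TPM. Socs3 and Pim1 overlapped, at 5.49 to 9.19 and 2.71 to 4.71 TPM over all libraries. Lif, named after its values were seen, had an unadjusted p under 0.05 for a higher level at 8 h (log2 fold change 0.56 ± 0.19, limma, adjusted p = 0.369), and Il6ra and Cntf one for a lower level (-1.24 ± 0.44 and -0.79 ± 0.16, adjusted p = 0.381 and 0.262).

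All 16 factors known at the Gfap promoter were tested, 6 being above and 5 below in the 8 h replicates 13 and 15 (6 and 7 after scaling). Nfix, of the nuclear factor I family, was at 60.0 and 73.8 TPM in these 2 libraries and between 32.5 and 47.3 TPM in the others, and its relative Nfic at 15.9 and 19.4 against 9.98 to 10.7 TPM. Both were named as the nearest to Gfap in the list. Their relatives Nfia and Nfib, named after their values were seen, overlapped, at 17.9 to 29.8 and 86.3 to 109.6 TPM over all libraries. Olig2, a factor of the oligodendrocyte lineage and the most abundant of the list, was at 630.7 and 674.8 against 428.9 to 506.7 TPM. Id1, an inhibitor of basic helix-loop-helix factors and a target of BMP signalling, was at 67.7 and 67.6 TPM at 1 h and at 32.5, 36.5 and 32.1 TPM at 8 h. For Id1 all 8 h libraries were alike, replicate 14 included, unlike for Gfap. Its log2 fold change was -0.99 ± 0.10 (limma, adjusted p = 0.106), and that of its relative Id3 was -0.54 ± 0.13 (adjusted p = 0.300).

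The partners of Timp1, C3 and Cd44 were mixed. Of 11 metalloproteinases and other TIMPs 9 were tested, of which 4 were above and 0 below in the 8 h replicates 13 and 15, also after scaling. Of all genes 39.8% were above and 13.5% below, and 24.4% and 24.9% after scaling. Mmp14, which is anchored in the membrane, was at 198.4 and 186.4 TPM in these 2 libraries and between 102.3 and 128.5 TPM in the others, and Timp2 at 78.8 TPM in both against 41.6 to 52.3 TPM. Mmp15, also anchored in the membrane, was at 296.2 and 272.7 against 186.4 to 238.5 TPM. Of 12 complement genes C4b alone was tested, at 4.89 and 8.98 TPM against 0.0295 to 0.599 TPM, the regulator Cd55 was at 0.111 to 0.832 TPM, and C1qa and C1qb were listed at 0. Of 8 CD44 ligands and linkers 6 were tested, 4 above and 2 below (3 and 2 after scaling). Spp1, which encodes the CD44 ligand osteopontin, was at 89.1 and 80.3 TPM in these 2 libraries and between 24.3 and 32.1 TPM in the others, the opposite of Cd44 itself. Hmmr, a hyaluronan-binding protein of dividing cells, was at 57.1 and 61.8 against 20.2 to 20.6 TPM. Of the linkers to actin, Rdx was at 147.6 and 163.3 against 121.5 to 130.1 TPM and Msn, which was lower, at 468.7 and 489.8 against 533.1 to 584.9 TPM.

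**Figure D5:**
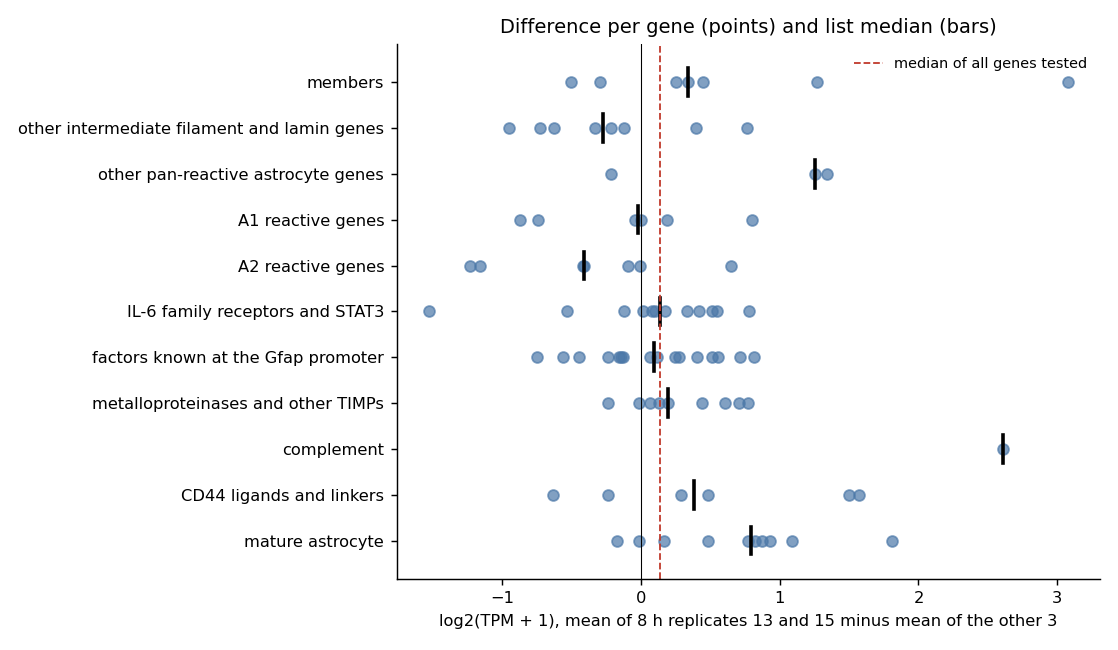
Difference of log2(TPM + 1) between the mean of the 8 h replicates 13 and 15 and that of the other 3 libraries (horizontal axis) for each tested gene (points) of each list, with the list's median (black bars) and the median of all genes tested (dashed line, 0.14). Among the members Gfap lies at 3.08, and in the A2 list and that of other filaments the medians lie below 0.

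The 2 libraries with the most Gfap also had the highest sums of mature astrocyte markers and of stem and precursor markers. The mature astrocyte list summed to 1178 and 1396 TPM at 1 h and to 1984, 1154 and 1988 TPM in the 8 h replicates 13, 14 and 15. Of its 10 tested genes 7 were above the other libraries in replicates 13 and 15 and 1 below, with the same counts after scaling. The shares of all genes were 39.8% and 13.5%, and 24.4% and 24.9% after scaling. The whole order of Gfap was found in 2 of the 10. The stem and precursor list summed to 11038 and 11981 TPM in replicates 13 and 15 and to between 9202 and 9773 TPM in the others. Of its 9 genes 6 were above and 1 below (6 and 2 after scaling), so the rise was not particular to mature astrocyte markers. Of 6 neuron markers 1 was above and 3 were below, also after scaling, and of 6 oligodendrocyte lineage markers 0 were above and 3 below (5 after scaling). Of the mature astrocyte markers, Gjb6 was listed at 0. Aldh1l1, the most abundant, was at 724.3 and 668.3 TPM against 454.9 to 580.6 TPM. Aqp4, the water channel of astrocyte endfeet, was chosen after its values were seen: it was at 12.04 and 11.06 TPM at 1 h and at 30.7, 7.33 and 45.2 TPM at 8 h, at a distance of 0.641 from Gfap. The part of these markers, of the identifier series and of the sex chromosome transcripts in the levels of Gfap and Osmr was not tested.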

How the data were processed

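RNA was sequenced from poly-A selected, stranded, paired-end libraries. The authors aligned reads to GRCm38 with STAR through nf-core/rnaseq and counted them with featureCounts. As deposited, the counts are whole reads for 7599 genes, with column totals of 13988166 to 18572154, and 0 columns were left unassigned. The authors also deposited per-library tables of TPM, FPKM and per-base coverage (tool not given in the sources used here). Rows of 1 gene identifier were summed in TPM, and the deposited FPKM and coverage served to describe depth: their ratio, which scales with depth, was 5.58 to 7.18.

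Groups came from the labels. The members and lists were chosen with earlier results of these data known. TPM was tested with limma 3.58.1 (trend, pseudocount 1, mean TPM of at least 1) and counts with edgeR 4.0.16 (R 4.3.3, TMM), both without covariates and with Benjamini-Hochberg adjustment; DESeq2 1.42.0 was an alternative. Likeness to Gfap and the identifier series had no test. Scripts were tested on simulated data. List genes named were, unless said otherwise, the 2 most abundant, the 2 with the largest fold change and the 2 nearest to Gfap. From marker lists, genes were named beside results only. P-values cover the spread between these libraries.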

Additional observations from a re-analysis of the deposited data

How the results depend on the processing

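The minimum of 1 TPM left out Des, C3 and Lcn2. In TPM, 6 genes were called, against 0 with no filter on low values (2371 then had an unadjusted p under 0.05), 19 with the identifier series as a term, and 0 to 568 leaving out 1 library, the highest without the 8 h replicate 14. Of the members other than Gfap 0 to 1 were called in TPM when 1 library was left out: Osmr, without the 8 h replicate 14. With the series as a term, and with series 1 alone, the 8 h side in TPM is replicate 14 alone. The log2 fold change then turned to -0.90 for Gfap, -0.042 for Vim, 0.094 for Synm, 0.14 for Cd44, -0.046 for Serpina3n and -0.085 for Osmr. In counts it turned with the series as a term to -0.40 for Gfap, 0.35 for Synm and -0.030 for Osmr, a term that is misassigned for the column named replicate 13 if the names of the TPM tables hold. Leaving out 1 library at a time, count values ran from -0.76 to 1.69 for Gfap, -0.34 to 0.22 for Synm, -0.00027 to 0.95 for Serpina3n, -0.014 to 0.49 for Timp1 and -0.16 to 0.66 for Osmr. The causes were not tested. Of the 10 genes nearest to Gfap 5 were shared with a pseudocount of 0.1. With median-ratio scaling, an alternative added after seeing the data for the division by series, 3391 genes were higher and 3457 lower in the 8 h replicates 13 and 15, in place of 5527 and 1868. Beside leaving out libraries, values of the members other than Gfap kept direction and side of the threshold in 32 alternative TPM values, where 10 turned, and in 28 count values, where 2 turned. No paired analysis was possible because the groups share no replicate number.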
